A study of Mus musculus with 48 samples.

Results

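The step examined here runs from the 4 h to the 8 h collection in mouse liver, and it sets 16 RNA-seq libraries against each other, 8 at 8 h and 8 at 4 h, out of 48 libraries in the series. The 16 libraries were chosen by their labelled collection time alone, and knockout and wild-type livers were tested together with genotype as a covariate. Each side held 4 KO and 4 WT livers. KO mice carried floxed Bmal1 alleles and an aP2-driven Cre. WT mice were their littermates. All groups were C57BL/6, labelled male and 4 to 6 months old, and all had been moved to constant darkness for 36 h before the first collection, with a group killed every 4 h for 20 h. Each library was 1 liver of 1 mouse, so p-values measure the spread between mice together with that between their libraries, which cannot be told apart.

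The aP2 promoter drives Cre in fat cells, so the liver was not the targeted tissue, and a liver level of Arntl, the gene that encodes BMAL1, does not check the genotype. The labels give the tissue as liver and the cell type as adipocyte. Summed hepatocyte markers lay between 18690 and 31980 CPM (normalised read counts, with library sizes adjusted by TMM) in the 8 h libraries and between 19660 and 36780 CPM in the 4 h libraries. Of 8 fat cell markers, Lep had 0 counts in all 16 libraries, which allows up to 3, Plin1 and Retn had 0 or 1 and Adipoq had 0 to 4. The summed level of all 8 was 494.8 to 3337 CPM at 8 h and 449.2 to 1363 CPM at 4 h, most of it Car3, a carbonic anhydrase gene, with up to 3235 CPM, and the rest Plin4, Lpl and Cidec. None of these 4 passed the test from 4 to 8 h. Xist, which is transcribed from the inactive X chromosome, had 4615 to 13969 counts in every library, and the Y-linked genes had 0 or 1, which goes against the label of male mice. Total counts without albumin lay between 12908159 and 13006799. In bulk liver RNA, fewer cells of a type and less RNA per cell cannot be told apart.

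Some libraries stood apart. Across genes, the deviation of a library from the mean of all 16 followed GC content with a correlation of -0.51 to 0.05 in the KO and -0.54 to 0.22 in the WT libraries of 8 h. At 4 h it was -0.62 to 0.69 in the KO and 0.20 to 0.69 in the WT libraries. The value of 0.69 in KO belonged to replicate 1, against -0.23, -0.62 and -0.61 in the other 3 KO libraries of 4 h. KO replicate 2 of 4 h had 54369 counts of Saa1, the acute phase protein serum amyloid A, against 288 to 1559 in the other libraries. WT replicate 2 of 8 h stood apart from its group over all genes. Without KO replicate 2 of 4 h, the calls of Lcn2, Xlr4a, Cdkn1a, Tars, Itih3, Hsd3b7, Nr1i3, Gnat1, Atf5 and Gm129 were lost, at adjusted p of 0.0502 (Gm129) to 0.0907 (Lcn2). Without WT replicate 2 of 8 h, those of Lcn2, Cdkn1a and Atf5 were lost, and without KO replicate 1 of 4 h, those of Lcn2, Xlr4a, Cdkn1a, Atf5, Lrfn3 and Zc3h12d. All of these changes kept their direction.

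The circadian clock of liver cells is a feedback loop of transcription. BMAL1, paired with CLOCK or NPAS2, activates genes through E-box sequences, among them the Per and Cry genes, whose proteins then repress that pair. A further loop of ROR activators and REV-ERB repressors (Nr1d1 and Nr1d2) acts on Arntl itself, and the PAR bZIP factors Dbp, Tef and Hlf, opposed by Nfil3, pass the rhythm on through D-box sequences to genes of metabolism.

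Between 4 and 8 h, a small set of genes passed the threshold, with clock genes and their known outputs among the largest changes and the lowest p-values. Of 12811 genes tested, 154 passed edgeR's quasi-likelihood test at a Benjamini-Hochberg adjusted p below 0.05, which is 1.2% of the genes tested. Of these, 61 rose (0.476%) and 93 fell (0.726%), and 28 of the risers and 38 of the fallers moved by more than 1 log2 unit. All 154 had the same sign in KO and in WT livers. The test over both genotypes chose these genes and so favours such agreement, which is given here as a description. In 43 of them, 22 risers and 21 fallers, the 8 libraries of 8 h and the 8 libraries of 4 h did not overlap, and over all genes tested 0.367% did not overlap, 0.172% with 8 h above and 0.195% with 8 h below. The median log2 change of all genes tested was 1e-04. The genes that rose had a median GC content of 50.0% and those that fell 52.0%, against 49.6% for all genes tested. With each library's trends with GC content and length removed, 301 genes passed, 132 higher and 169 lower, and 147 of the 154 were among them. The count depended on single libraries. Among those of 8 h it was 96 without KO replicate 3 or KO replicate 4, 71 without WT replicate 1 or WT replicate 4 and 96 without WT replicate 3. Among those of 4 h it was 102, 82 and 318 without KO replicates 1, 2 and 3, and 82 and 78 without WT replicates 1 and 2. Without both KO replicate 2 of 4 h and WT replicate 2 of 8 h it was 105, 66 higher and 39 lower.

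**Figure D1:**
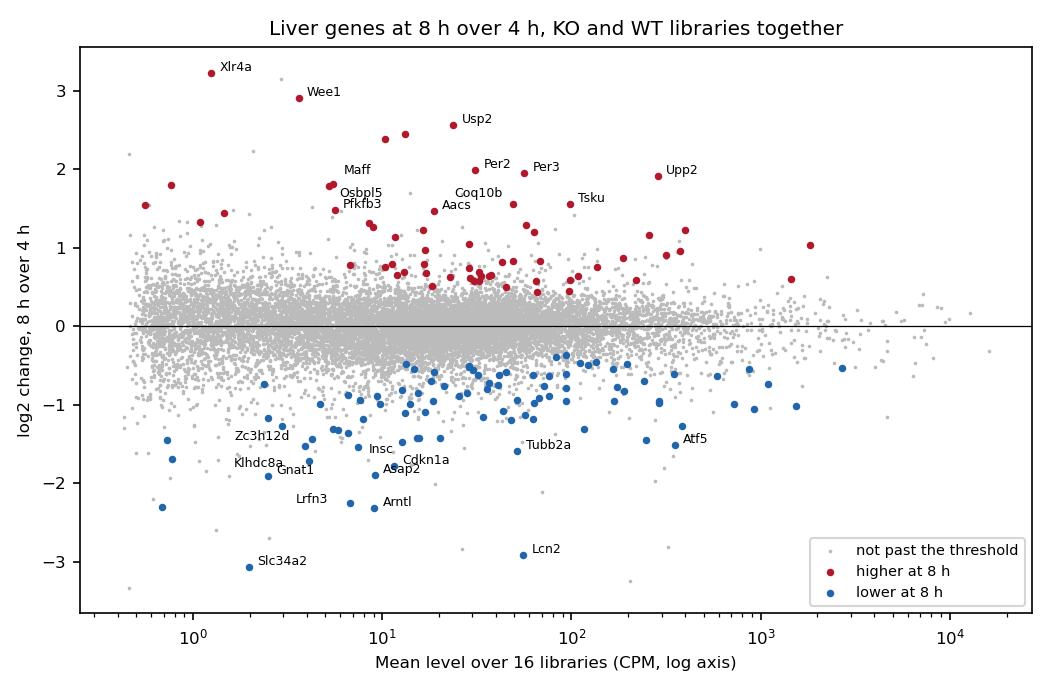
Log2 change at 8 h over 4 h (vertical axis) of each gene tested against its mean level over the 16 libraries in CPM (horizontal log axis). Red points are the 61 genes higher at 8 h, blue points the 93 genes lower at 8 h, grey points did not pass the threshold, and the 12 largest rises and falls with a regular gene name are labelled. Per2, Per3, Usp2 and Wee1 lie far above 0, and Arntl, Slc34a2 and Lcn2 far below.

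Of the 20 core clock genes tested, 4 rose, 1 fell and 15 did not pass. Their median log2 change was 0.18. Per2, a repressor of the loop, was 3.98-fold higher at 8 h. It had 47.2, 52.1, 50.4 and 55.9 CPM in KO and 56.8, 30.7, 52.5 and 51.0 CPM in WT livers at 8 h, against 11.1, 12.9, 17.3 and 17.8 CPM in KO and 8.89, 4.89, 14.0 and 14.0 CPM in WT livers at 4 h. Every liver of 8 h was above every liver of 4 h (log2 change 1.99 ± 0.20 (SE), edgeR adjusted p = 8.6e-05). Per2 lies on mm9 chromosome 1 from 93312561 to 93355907.

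Per3, the related repressor, had 49.7 to 121 CPM (median 88.4) at 8 h, against 6.49 to 58.4 CPM (median 18.3) at 4 h. The groups overlapped through KO replicate 3 of 4 h, at 58.4 CPM, and WT replicate 2 of 8 h, at 49.7 CPM. The log2 change was 1.94 ± 0.32 (SE, edgeR adjusted p = 0.00496). Gm129, now named Ciart and known as a repressor of the BMAL1 pair, had 4.82 to 34.3 CPM (median 21.7) at 8 h, against 0.932 to 17.6 CPM (median 3.11) at 4 h. It rose by 2.45 ± 0.49 on the log2 scale (SE, edgeR adjusted p = 0.0200). The call for Gm129 was lost without KO replicate 2 of 4 h or WT replicate 1 of 8 h, with a highest adjusted p of 0.0508.

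Arntl fell, in the opposite direction to the Per genes. It had 3.48, 6.64, 3.00 and 1.57 CPM in KO and 1.56, 1.80, 3.17 and 2.02 CPM in WT livers at 8 h, against 12.6, 10.5, 6.08 and 8.96 CPM in KO and 20.2, 34.1, 12.4 and 17.6 CPM in WT livers at 4 h. Within each genotype the times did not overlap in WT, and in KO 1 library of 8 h lay above the lowest library of 4 h. Arntl fell by 2.32 ± 0.37 on the log2 scale (SE, edgeR adjusted p = 0.00404), by 1.39 in KO and by 3.28 in WT livers. That difference between genotypes did not pass the interaction test (1.90, edgeR adjusted p = 0.324). Npas2, the partner that stands in for CLOCK, had 1.21, 1.5, 1.61 and 1.2 CPM in KO livers at 8 h, against 4.05, 3.54, 0.822 and 1.70 CPM in KO livers at 4 h. In WT livers it had 0, 0.157, 0.0704 and 0.0696 CPM at 8 h, against 3.45, 14.6, 2.54 and 4.02 CPM at 4 h. Of these 4 groups only the WT livers of 8 h were near 0, and WT livers averaged 0.0994 CPM at 12 h. Its change over both genotypes, -2.70 ± 0.72, did not pass (SE, edgeR adjusted p = 0.0825), and the fit over 16 libraries takes both genotypes as 1 step.

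Nr1d2 and Per1 had log2 changes of 0.83 (edgeR adjusted p = 0.119) and 0.67 (edgeR adjusted p = 0.460), and Nr1d1 had -0.54 (edgeR adjusted p = 0.678). Nr1d1 ranged from 11.8 to 80.6 CPM at 8 h and from 5.17 to 186 CPM at 4 h, so the spread within a time was larger than the difference. Cry1 (-0.31), Cry2 (0.34) and Clock (-0.36) did not pass either.

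Among the 18 clock output genes, 4 rose, 1 fell and 13 did not pass, and their median log2 change was 0.58. Usp2, a deubiquitinating enzyme, had 28.6 to 58.8 CPM (median 40.2) at 8 h, against 2.37 to 11.9 CPM (median 6.92) at 4 h. It was 5.88-fold higher at 8 h with no overlap (log2 change 2.56 ± 0.26 (SE), edgeR adjusted p = 8.6e-05). Wee1, a kinase that holds back entry into mitosis, was 7.50-fold higher, with 2.82 to 9.23 CPM (median 6.68) at 8 h and 0.382 to 1.48 CPM (median 0.709) at 4 h. The times did not overlap (log2 change 2.91 ± 0.30 (SE), edgeR adjusted p = 8.6e-05). Tef had 236 to 465 CPM at 8 h and 103 to 207 CPM at 4 h, again with no overlap (log2 change 1.16 ± 0.16 (SE), edgeR adjusted p = 0.00105). Gys2, the liver glycogen synthase, rose by 0.59. Its call was lost in 6 of 28 alternatives, with a highest adjusted p of 0.0653. Insig2, which holds the sterol-sensing SREBP complex in the endoplasmic reticulum, was the member that fell, with 147 to 303 CPM at 8 h, against 369 to 962 CPM at 4 h (log2 change -1.27 ± 0.21 (SE), edgeR adjusted p = 0.00496).

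Dbp, the best known PAR bZIP gene, had a log2 change of 1.24 ± 0.41 and did not pass (SE, edgeR adjusted p = 0.154). It had 35 to 185 CPM at 8 h and 11.6 to 82.7 CPM at 4 h. Nampt (0.98), Alas1 (0.94), Ppara (0.91) and Nfil3 (-1.10) did not pass, with edgeR adjusted p of 0.0869, 0.0726, 0.0857 and 0.152.

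**Figure D2:**
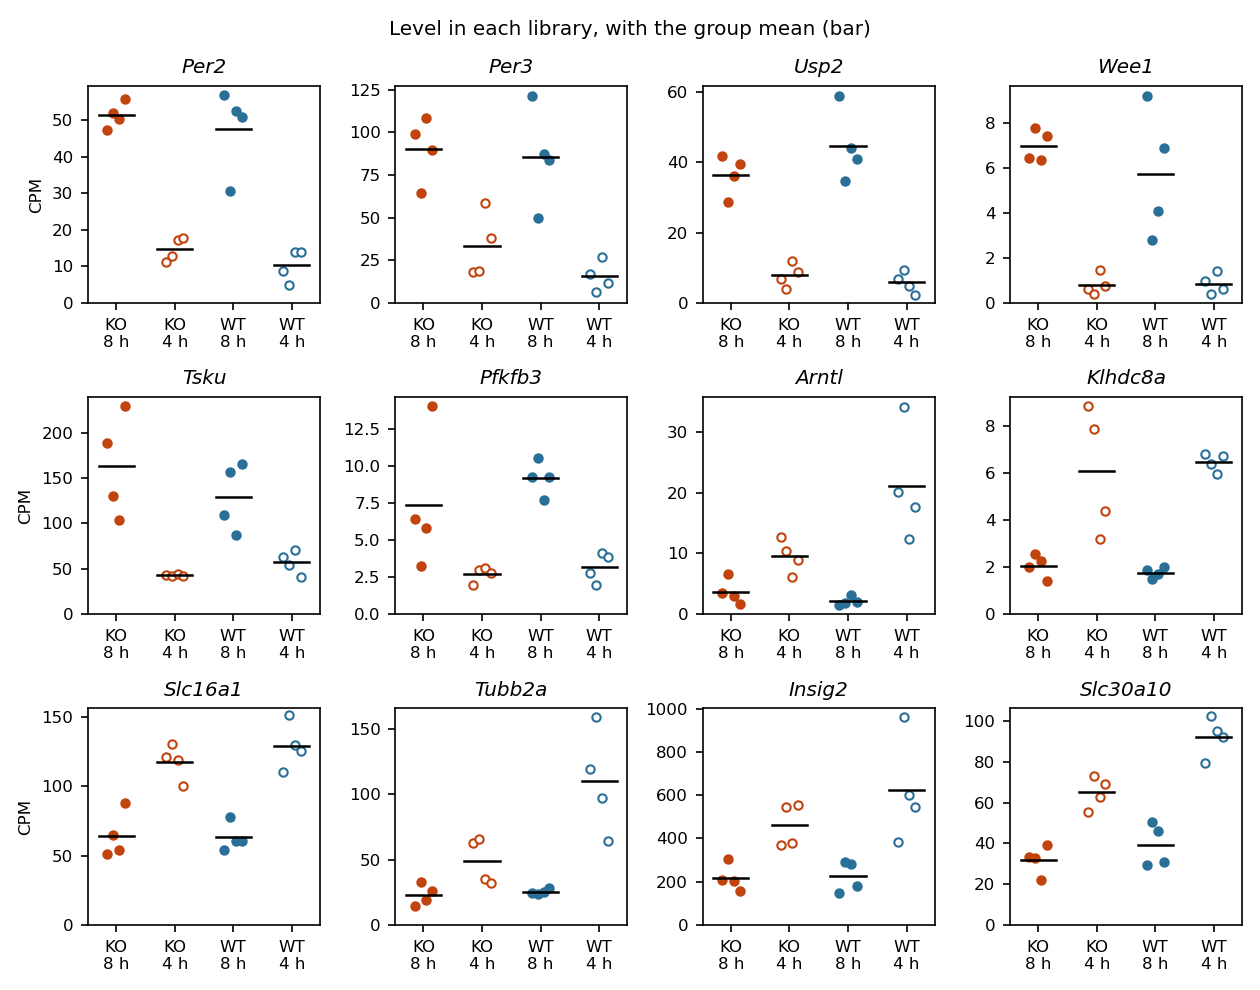
Level of 12 genes in each of the 16 libraries in CPM (vertical axis, from 0), with filled points for 8 h, open points for 4 h, orange for KO, blue for WT, and a bar at each group mean. Per2, Usp2, Wee1 and Tsku are higher in every 8 h library than in any 4 h library, and Klhdc8a, Slc16a1, Insig2 and Slc30a10 are lower.

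Promoter windows of RefSeq (GRCm38.p6), from 250 bases before to 50 bases after a gene start, were searched on both strands for the E-box CACGTG, the D-box TTANGTAA and a ROR element written ANNAGGTCA. No match in the windows printed overlapped another. Of the 29 clock, output and largest-change genes that passed, 23 had a window and 8 of these held a match. Of the clock and output genes that did not pass, 24 had a window and 7 of these held a match, and of all tested genes with a window 16.5% held at least 1 of the 3 motifs. Over the genes that rose and had a window, 13 of 46 (28.3%) held an E-box, 5 (10.9%) a D-box and 0 a ROR element. Over the genes that fell, 9 of 69 (13.0%) held an E-box, 1 (1.45%) a D-box and 2 (2.90%) a ROR element. Over all tested genes with a window, 11.8% held an E-box, 1.94% a D-box and 3.43% a ROR element, and over all 32841 windows of the table the shares were 7.15%, 2.32% and 4.03%. These are descriptions of letters with no test. The 8 windows with a match among the genes that passed are shown. Gm129, Per3, Arntl and Tef are clock or clock output genes, and Osbpl5, Coq10b, Pfkfb3 and Maff are among the largest rises outside those lists. Sequences run 5′ to 3′ on the strand of the gene, capitals mark the matched motif, and positions count from the gene start.
Osbpl5 (chr7:143756959-143757258, minus strand): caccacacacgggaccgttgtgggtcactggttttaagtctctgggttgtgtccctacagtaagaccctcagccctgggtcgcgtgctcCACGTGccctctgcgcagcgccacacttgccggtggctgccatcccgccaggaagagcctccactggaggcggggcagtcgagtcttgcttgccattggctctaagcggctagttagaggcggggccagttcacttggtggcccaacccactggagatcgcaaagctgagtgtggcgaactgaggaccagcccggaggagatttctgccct
Tef (chr15:81802423-81802722, plus strand): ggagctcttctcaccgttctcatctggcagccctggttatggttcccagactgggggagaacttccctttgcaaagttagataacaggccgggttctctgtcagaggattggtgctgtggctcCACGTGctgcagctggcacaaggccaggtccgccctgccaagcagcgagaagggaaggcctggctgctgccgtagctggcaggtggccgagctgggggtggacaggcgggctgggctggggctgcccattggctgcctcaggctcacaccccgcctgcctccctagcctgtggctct
Coq10b (chr1:55052520-55052819, plus strand): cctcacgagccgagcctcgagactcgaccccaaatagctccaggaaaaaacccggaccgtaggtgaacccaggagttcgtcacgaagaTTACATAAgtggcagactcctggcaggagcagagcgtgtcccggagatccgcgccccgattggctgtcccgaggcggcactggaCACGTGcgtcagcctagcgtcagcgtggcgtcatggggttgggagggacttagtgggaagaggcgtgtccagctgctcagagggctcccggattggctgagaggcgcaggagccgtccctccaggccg
Arntl (chr7:113207261-113207560, plus strand): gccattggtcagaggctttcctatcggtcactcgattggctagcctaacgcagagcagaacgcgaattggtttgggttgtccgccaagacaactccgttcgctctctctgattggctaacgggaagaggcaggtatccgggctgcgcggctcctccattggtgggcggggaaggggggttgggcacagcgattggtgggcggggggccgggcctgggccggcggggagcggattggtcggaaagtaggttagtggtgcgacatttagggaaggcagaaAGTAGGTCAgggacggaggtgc
Pfkfb3 (chr2:11502041-11502340, minus strand): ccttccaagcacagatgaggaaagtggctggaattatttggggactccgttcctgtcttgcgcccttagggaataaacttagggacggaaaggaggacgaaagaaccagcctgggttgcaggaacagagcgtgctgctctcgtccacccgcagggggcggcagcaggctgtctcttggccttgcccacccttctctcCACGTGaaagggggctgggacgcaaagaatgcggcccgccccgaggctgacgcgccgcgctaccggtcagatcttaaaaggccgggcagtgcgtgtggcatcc
Per3 (chr4:151044616-151044915, minus strand): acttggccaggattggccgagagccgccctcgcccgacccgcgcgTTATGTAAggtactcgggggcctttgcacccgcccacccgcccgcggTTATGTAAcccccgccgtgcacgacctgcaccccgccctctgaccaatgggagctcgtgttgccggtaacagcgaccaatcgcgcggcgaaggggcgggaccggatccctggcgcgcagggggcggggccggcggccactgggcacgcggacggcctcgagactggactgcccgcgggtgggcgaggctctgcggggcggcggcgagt
Maff (chr15:79347270-79347569, plus strand): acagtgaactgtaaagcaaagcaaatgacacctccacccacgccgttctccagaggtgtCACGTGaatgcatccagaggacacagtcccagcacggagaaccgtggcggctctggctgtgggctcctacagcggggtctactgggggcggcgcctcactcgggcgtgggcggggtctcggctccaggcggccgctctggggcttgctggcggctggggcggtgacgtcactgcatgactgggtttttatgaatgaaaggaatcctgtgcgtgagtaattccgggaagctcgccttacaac
Gm129 (chr3:95882179-95882478, minus strand): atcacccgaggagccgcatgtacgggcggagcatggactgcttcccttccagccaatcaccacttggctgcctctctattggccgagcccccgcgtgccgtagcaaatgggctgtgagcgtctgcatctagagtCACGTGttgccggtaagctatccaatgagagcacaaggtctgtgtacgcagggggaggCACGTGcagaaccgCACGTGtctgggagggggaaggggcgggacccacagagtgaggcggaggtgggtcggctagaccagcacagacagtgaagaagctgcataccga

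In the Gm129 window the E-boxes began at -116, -58 and -44, in that of Per3 the D-boxes at -205 and -158, and in that of Arntl the ROR element at 29. Coq10b held an E-box at -78 and a D-box at -162. Single E-boxes began at -161 in Osbpl5, -127 in Tef, -53 in Pfkfb3 and -191 in Maff. All of these genes rose except Arntl, which fell.

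Besides the clock genes, the largest rises with a regular name included Tsku, Osbpl5, Coq10b, Upp2, Pfkfb3, Aacs, Maff and Xlr4a. Tsku, which encodes the secreted protein tsukushi, had 86.9 to 230.0 CPM (median 143) at 8 h, against 40.5 to 71.1 CPM (median 43.6) at 4 h. The times did not overlap (log2 change 1.55 ± 0.20 (SE), edgeR adjusted p = 8.2e-04). Osbpl5, an oxysterol-binding protein relative, had 5.20 to 9.86 CPM at 8 h, against 0.885 to 3.55 CPM at 4 h (log2 change 1.78 ± 0.23 (SE), edgeR adjusted p = 8.2e-04). Coq10b, which binds coenzyme Q in mitochondria, had 54.3 to 110.5 CPM at 8 h, against 14.3 to 52.0 CPM at 4 h, and the times did not overlap. It rose by 1.56 on the log2 scale. Upp2, a uridine phosphorylase, had 156 to 729 CPM at 8 h, against 49.1 to 295 CPM at 4 h, and rose by 1.91. Pfkfb3, which makes the activator of glycolysis fructose 2,6-bisphosphate, rose by 1.48, and Aacs, which activates acetoacetate for lipid synthesis, by 1.47. Maff, a small Maf transcription factor, rose by 1.81. Wee1, Usp2, Per2, Per3, Upp2, Maff, Osbpl5, Coq10b, Tsku, Pfkfb3 and Aacs passed in all 28 alternatives. Xlr4a, an X-linked lymphocyte-regulated gene and the largest rise with a regular name, had 0.141 to 4.95 CPM at 8 h, against 0.0747 to 0.541 CPM at 4 h. Its log2 change of 3.23 ± 0.70 (SE, edgeR adjusted p = 0.0301) lost its call in 10 of 28 alternatives, with a highest adjusted p of 0.0995, and 2 of the 8 libraries of 8 h lay within the range of 4 h.

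Klhdc8a, Slc30a10, Slc16a1, Cldn1 and Clpx had the lowest p-values among the falls, and all 5 passed in all 28 alternatives. Klhdc8a, a kelch-domain protein, had 1.42 to 2.57 CPM (median 1.92) at 8 h, against 3.20 to 8.88 CPM (median 6.58) at 4 h, with no overlap (log2 change -1.71 ± 0.21 (SE), edgeR adjusted p = 5.6e-04). Slc30a10, a manganese exporter, had 22.1 to 50.6 CPM (median 33.0) at 8 h, against 55.3 to 102 CPM (median 76.3) at 4 h. It did not overlap either (log2 change -1.13 ± 0.14 (SE), edgeR adjusted p = 7.2e-04). Slc16a1, the lactate and ketone transporter MCT1, had 51.3 to 87.6 CPM at 8 h, against 100.1 to 151 CPM at 4 h (log2 change -0.95 ± 0.12 (SE), edgeR adjusted p = 8.2e-04). Cldn1, a tight junction protein, fell by 0.98, and Clpx, the unfolding subunit of the mitochondrial ClpXP protease, by 1.45. Clpx had 99.9 to 256 CPM at 8 h, against 252 to 546 CPM at 4 h, and KO replicate 2 of 8 h was its high library of that time.

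Among the larger falls, Slc34a2, a sodium phosphate cotransporter, had 0.0704 to 1.08 CPM at 8 h, against 0.411 to 7.46 CPM at 4 h. It fell by 3.07 ± 0.54 on the log2 scale (SE, edgeR adjusted p = 0.00716). Lrfn3, a synaptic adhesion protein, Gnat1, the rod transducin alpha subunit, and Asap2, an Arf GTPase-activating protein, fell by 2.26, 1.91 and 1.89. Lrfn3, Gnat1 and Asap2 lost their calls in 4, 7 and 4 of 28 alternatives. Insc, a spindle orientation adaptor, fell by 1.54 and passed in all 28. Cdkn1a, the cyclin-dependent kinase inhibitor p21, had 2.70 to 8.80 CPM at 8 h, against 2.14 to 59.7 CPM at 4 h. Its fall by 1.79 (edgeR adjusted p = 0.0397) lost its call in 17 of 28 alternatives, with a highest adjusted p of 0.150. Atf5, a stress-responsive transcription factor, and Zc3h12d, a CCCH zinc finger protein, fell by 1.51 and 1.53 and lost their calls in 14 and 7.

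Lcn2, the iron-siderophore binding lipocalin of the acute phase, rested on few libraries. It had 3.92 to 26.3 CPM at 8 h, against 9.86 to 452 CPM at 4 h, and the highest value belonged to KO replicate 2 of 4 h, the liver with the high Saa1 count. Its log2 change of -2.92 ± 0.70 (SE, edgeR adjusted p = 0.0498) lost its call in 21 of 28 alternatives, and over them it ranged from -3.19 to -1.50. Of the 20 acute phase genes tested, 3 fell, 0 rose and 19 had a negative change, with a median of -0.52. Over all 12811 genes tested, 0.726% fell and 6402 had a negative change. Itih4 and Itih3, inter-alpha-trypsin inhibitor heavy chains, fell by 1.01 and 0.73 (edgeR adjusted p = 0.0109 and 0.0301). Itih3 lost its call in 11 of 28 alternatives, with a highest adjusted p of 0.145, and without KO replicate 2 of 4 h its change was -0.61 (edgeR adjusted p = 0.0645). Itih4 had 782 to 1284 CPM at 8 h, against 1243 to 3302 CPM at 4 h, and it passed in 27 of 28 alternatives, those without KO replicate 2 of 4 h included. Saa1 and Saa2, chosen for naming after their values were seen, had -2.81 and -3.25 and did not pass. The 3 neutrophil markers tested had changes of -3.33 to -0.60, none past the threshold. The summed level of all 7 neutrophil markers, tested or not, was 2.49 to 12.1 CPM at 8 h and 1.87 to 29.0 CPM at 4 h. The part of that 1 liver in the acute phase list as a whole was not tested.

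The metabolic lists named next held 1 or 2 genes each that passed, where 1.2% of all genes tested passed. Of 20 fatty acid synthesis genes, 2 rose, the phosphatidate phosphatases Lpin1 (1.29, edgeR adjusted p = 0.0289) and Lpin2 (0.95, edgeR adjusted p = 8.2e-04), and the list median was 0.09. Lpin2 had 369.9 to 626 CPM at 8 h, against 200.1 to 298 CPM at 4 h, with no overlap. Lpin1 overlapped and lost its call in 7 of 28 alternatives, with a highest adjusted p of 0.194. Of 25 xenobiotic genes, 2 rose, the coumarin hydroxylase gene Cyp2a5 and Nr1i3, the nuclear receptor CAR. Cyp2a5 had 1908 to 2940 CPM at 8 h, against 499 to 1781 CPM at 4 h, with no overlap (log2 change 1.03 ± 0.21 (SE), edgeR adjusted p = 0.0217). Reads of Cyp2a5 may be shared with close relatives, so its level is uncertain. It lost its call in 3 of 28 alternatives, with a highest adjusted p of 0.0553. Nr1i3 had 1454 to 2015 CPM at 8 h, against 847 to 1431 CPM at 4 h, and rose by 0.60 with no overlap (edgeR adjusted p = 0.0227). It lost its call in 7 of 28 alternatives, with a highest adjusted p of 0.0729. Of 17 glucose genes, Ppp1r3c, which brings protein phosphatase 1 to glycogen, fell by 0.79, and of 17 bile acid genes, Hsd3b7, an enzyme of bile acid synthesis, fell by 0.64 (edgeR adjusted p = 0.0256). Hsd3b7 lost its call in 10 of 28 alternatives, with a highest adjusted p of 0.0925, and Ppp1r3c in 1. Of 23 genes of the endoplasmic reticulum and amino acid stress list, Herpud1, which serves in protein degradation there, rose by 0.90, with 346 to 503 CPM at 8 h and 119 to 325 CPM at 4 h. It went against its list, in which 18 of 23 members had a negative change and the median was -0.36. Of all genes tested, 6402 of 12811 had a negative change.

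Of 12 tubulin genes tested, 1 fell, 0 rose and all 12 had a negative change (median -0.35). Over all 12811 genes tested, 0.726% fell and 6402 had a negative change. Tubb2a, a beta tubulin, had 14.8, 32.5, 19.1 and 26.1 CPM in KO and 24.8, 23.9, 25.1 and 28.6 CPM in WT livers at 8 h, against 63.0, 66.0, 35.5 and 32.3 CPM in KO and 119, 159, 96.9 and 64.0 CPM in WT livers at 4 h. The overlap was 1 KO library of 8 h at 32.5 CPM and 1 KO library of 4 h at 32.3 CPM (log2 change -1.60 ± 0.24 (SE), edgeR adjusted p = 0.00266). Tuba1c, at -0.76, did not pass (edgeR adjusted p = 0.0544). Of the 16 cell cycle genes tested, Cdkn1a fell and no other passed.

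No member passed in lists of immediate early genes (19 tested), cholesterol synthesis (24), PPAR alpha targets and fatty acid oxidation (25), heat shock (18), cold-inducible RNA-binding proteins (2), interferon response (24), glucocorticoid response (12), growth hormone and IGF (12), autophagy (22), urea cycle (10), NAD metabolism (18), iron handling (15), heme synthesis (12) and ribosome biogenesis (22). None of 82 cytosolic ribosomal proteins, 76 respiratory chain subunits and 37 proteasome subunits passed, with medians of 0.08, 0.04 and -0.03. Over all genes tested only 1.2% passed, so a list of such a size without a call is not shown to be unchanged. Cyp8b1, which sets the bile acid composition, had a log2 change of -1.98 and did not pass (edgeR adjusted p = 0.220). None of the cell type marker lists held a call. Their medians were 0.16 for macrophage and Kupffer genes, 0.05 for endothelium, 0.04 for stellate cells and fibroblasts, 0.41 for lymphocytes and 0.40 for red blood cells. They were -0.27 for hepatocytes, -0.04 for bile duct, -0.75 for neutrophils and 0.10 for fat cells. The pancreas and adrenal lists had 1 gene tested each, at -0.33 and 0.72.

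**Figure D3:**
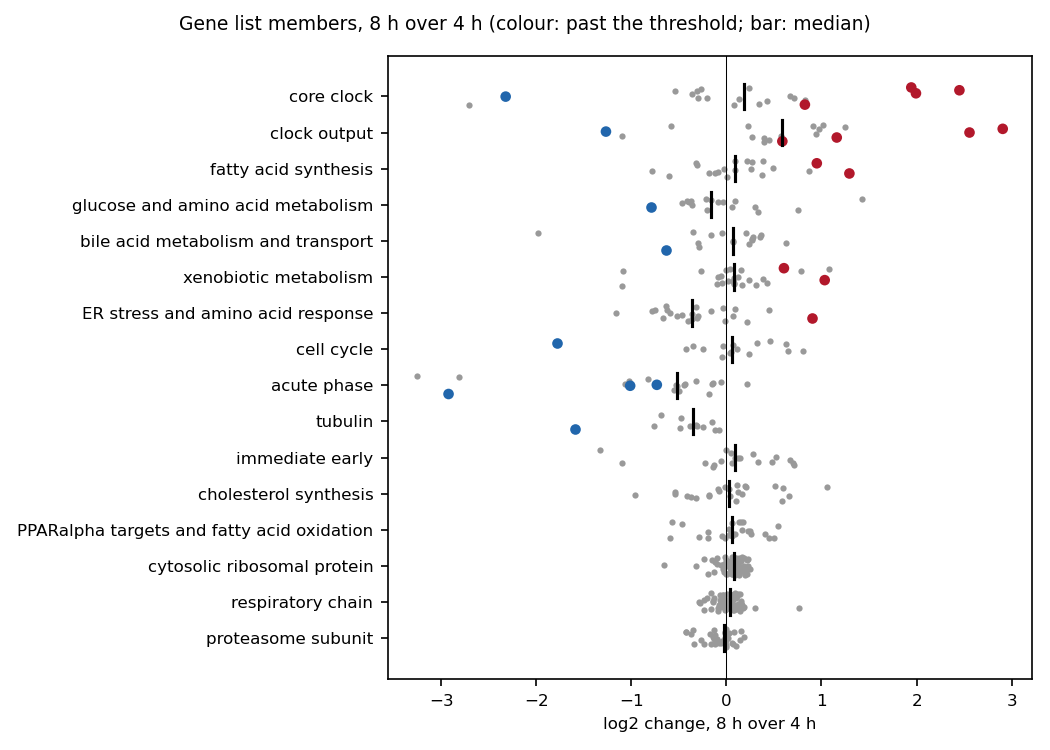
Log2 change at 8 h over 4 h (horizontal axis) of each tested member of 16 gene lists (rows). Large coloured points passed the threshold, red higher and blue lower at 8 h, small grey points did not, and black bars are list medians. The median of the clock output list is 0.58 and those of the ribosomal protein, respiratory chain and proteasome lists are 0.08, 0.04 and -0.03.

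The step was next taken within each genotype. In KO livers alone 9 genes passed, all higher at 8 h (0.0703% of the genes tested), and in WT livers alone 70 passed, 27 higher (0.211%) and 43 lower (0.336%), together 0.546%, with 6 genes in common. These 6 were Per2, Usp2, Wee1, Tsku, Osbpl5 and Lpin2. The median change of the 61 risers was 0.98 in KO and 0.85 in WT livers, and that of the 93 fallers was -0.79 in KO and -1.09 in WT livers. The KO count was 349 without KO replicate 1 of 4 h, 34 without WT replicate 2 of 8 h and between 0 and 4 without KO replicate 2, 3 or 4 of 4 h or KO replicate 1, 2 or 4 of 8 h. The WT count was 631 without KO replicate 1 of 4 h, and 22 to 46 without KO replicate 1 or 3 of 8 h, any WT replicate of 8 h, KO replicate 2 of 4 h or WT replicate 1 or 2 of 4 h. No gene passed the interaction test of edgeR (0%). Of the 12811 genes tested, 1931 had an unadjusted p below 0.05, a larger share than that threshold alone would give. The count of 0 therefore does not show that the step was alike in both genotypes. DESeq2 called 3, Npas2 (5.50), Tars (0.81) and Clec2d (-1.46), and the edgeR fit over all 48 libraries called 1, Npas2 (5.34, adjusted p = 0.0384). The count of 0 also rested on 1 library. Without KO replicate 1 of 4 h, edgeR called 2920 of 12952 genes, 1528 with a higher change in KO and 1392 with a lower one. With any other library left out it called 0. KO replicate 1 of 4 h is the library whose GC trend differed from the other KO libraries of 4 h. With GC and length trends removed, 0 genes were called with it and 749 of 12952 without it.

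Large gene families had median changes of opposite sign in the genotypes, a difference that was not tested. The median change of the cytosolic ribosomal proteins was -0.21 in KO and 0.34 in WT livers, and that of the respiratory chain -0.19 in KO and 0.29 in WT livers. The part of the libraries' GC and length trends in these values was not tested. Among single genes, Clec2d, a C-type lectin, had 204 to 267 CPM at 8 h and 240 to 381 CPM at 4 h in KO livers. In WT livers it had 228 to 389 CPM at 8 h and 117 to 158 CPM at 4 h. Tars, the threonyl-tRNA synthetase, had changes of -0.21 in KO and -1.02 in WT livers in the 4-group fit, with 130.6 CPM or more in every WT liver of 4 h and 102 CPM or less in every other liver. Neither difference passed edgeR's interaction test, with adjusted p of 0.317 and 0.324.

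The same genes were then followed in livers that the step did not use. At 12 h, 60 of the 61 risers had a higher mean log2 CPM than at 0 h (98.4%), with Xlr4a the exception. Of the 93 fallers, 92 had a lower mean (98.9%), with the complement gene C4a the exception. Over all genes tested, 48.5% were higher and 51.5% lower at 12 h than at 0 h. The median difference of 12 h from 0 h was 1.04 for the risers, -1.12 for the fallers and -0.01 for all genes tested. In KO livers alone 59 risers were higher and 92 fallers lower, and in WT livers alone 60 and 93. These are counts of means over 8 libraries a time, with no test.

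Over all 6 times, the mean of the risers was highest at 8 h for 20, at 12 h for 29 and at 16 h for 12 of the 61. It was lowest at 0 h for 27, at 4 h for 28, at 12 h for 1 and at 20 h for 5. The mean of the fallers was highest at 0 h for 63 of 93, at 4 h for 18, at 16 h for 2 and at 20 h for 10, and lowest at 8 h for 45, at 12 h for 44 and at 16 h for 4. Over all genes tested, the mean was highest at 0, 4, 8, 12, 16 and 20 h for 21.9, 15.4, 20.3, 11, 20.6 and 10.8%. At the same times it was lowest for 24.6, 15, 24.2, 11.5, 14.6 and 10.1%. Since the step chose these genes, no riser could be highest at 4 h or lowest at 8 h. Nor could a faller be lowest at 4 h or highest at 8 h. The choice also favours risers highest at 8 h or lowest at 4 h, and the reverse for fallers. Per2 had means of 8.17, 14.8, 51.4, 71.0, 49.4 and 26 CPM in KO livers at 0, 4, 8, 12, 16 and 20 h. In WT livers it had 7, 10.4, 47.7, 81.7, 71.2 and 29.4 CPM. Arntl had 32.4, 9.53, 3.67, 6.34, 26.3 and 32.1 CPM in KO and 37.0, 21.1, 2.14, 2.01, 16.2 and 32.3 CPM in WT livers at the same times. The lowest Arntl mean fell at 8 h in KO and at 12 h in WT livers, while the highest Per2 mean was at 12 h in both.

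**Figure D4:**
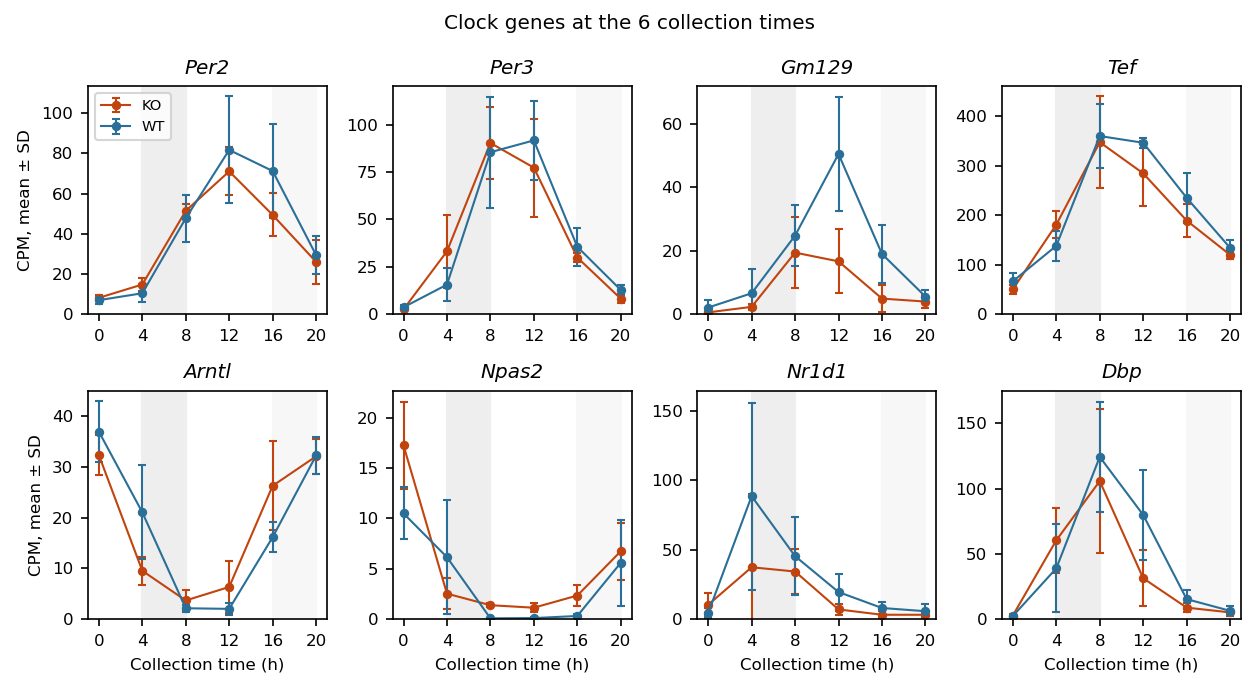
Mean level ± SD in CPM (vertical axis) at the 6 collection times in hours (horizontal axis) of 8 clock genes, KO in orange and WT in blue, 4 livers a point except 3 KO and 5 WT livers at 16 h. The darker band spans 4 to 8 h and the lighter band 16 to 20 h. Per2 and Per3 climb across the darker band and decline across the lighter one, and Arntl does the reverse.

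The step from 16 to 20 h, taken 12 h later in 16 other livers, ran in the opposite direction for most of the 154 genes. It sets 4 KO and 4 WT livers at 20 h against 3 KO and 5 WT livers at 16 h. On its own it held 5 called genes of 13121 (0.0381%), 3 higher (0.0229%) and 2 lower at 20 h (0.0152%), and 3 of the 5 were among the 154. Per3 fell by 1.64 (edgeR adjusted p = 2.3e-04), Cyp2a5 fell by 1.29 (edgeR adjusted p = 0.00292), and Slc30a10 rose by 0.93 (edgeR adjusted p = 0.0449), each against its direction from 4 to 8 h. The other 2 have predicted names, Gm8730 and Gm9625, and had the largest changes of the 5, rises of 3.78 and 3.93. Their changes from 4 to 8 h, which did not pass, were also positive, at 1.26 and 1.47. Without KO replicate 2 or 3 of 16 h, 10 genes passed. Of the 59 risers tested in the later step, 54 (91.5%) had a negative change, against 50.9% of all genes, and their median was -0.41 there and 0.90 in the earlier step. Of the 91 fallers tested, 85 (93.4%) had a positive change, against 49.1% of all genes, with medians of 0.41 and -0.95.

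The difference between the 2 steps was tested over their 32 libraries. It passed for 282 of 13469 genes (2.09%), 120 with a higher change from 4 to 8 h (0.891%) and 162 with a lower one (1.2%). These included 44 of the risers and 66 of the fallers. Since the 4 to 8 h change is part of that difference, genes chosen by it are counted here as a description. The lowest p-values belonged to Tubb2a (-2.57), Per3 (3.63), Slc30a10 (-2.03) and Per2 (3.11), each at an edgeR adjusted p of 5.5e-07. Tubb2a had means of 23.1 CPM in KO and 25.6 CPM in WT livers at 8 h, against 49.2 CPM in KO and 109.6 CPM in WT livers at 4 h. In the later step it had 158 CPM in KO and 135 CPM in WT livers at 20 h, against 61.4 CPM in KO and 88.3 CPM in WT livers at 16 h. Arntl differed by -2.97 (edgeR adjusted p = 8.4e-07) and Npas2 by -6.38 (edgeR adjusted p = 1.9e-06). Of the core clock genes that did not pass from 4 to 8 h, Nr1d2 differed between the steps by 1.97 (edgeR adjusted p = 9.6e-04), and so did the output gene Dbp, by 2.28 (edgeR adjusted p = 0.0175).

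**Figure D5:**
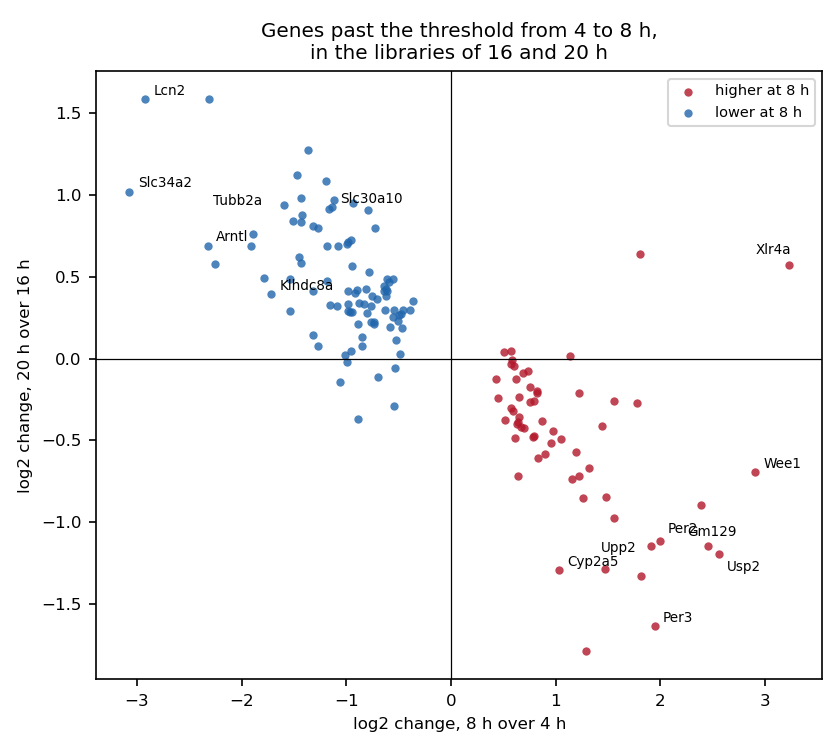
Log2 change at 20 h over 16 h (vertical axis) against log2 change at 8 h over 4 h (horizontal axis) for the 59 risers (red) and 91 fallers (blue) tested in both steps, which share no library. Of the red points 54 lie below 0 on the vertical axis, and of the blue points 85 lie above it.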

How the data were processed

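Poly(A) RNA of mouse liver was sequenced on a HiSeq 2000, per the labels' protocols. The deposited file gives counts as whole numbers, 1 column for each of 48 libraries. The submitters' processing notes name CASAVA, STAR 2.4.1d and build mm9. The sources used here name no counting tool and describe no strand setting beyond labelling the counts as sense. The kit does not keep strand, so overlapping and closely related genes are uncertain. Totals hardly differ between libraries, and how they came to be so close is not given in those sources. The Alb row holds multiples of a fixed step and was left out.

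Counts of the 16 libraries were filtered (filterByExpr, minimum count 10), scaled with TMM factors and tested with edgeR 4.0.16 in R 4.3.3 (quasi-likelihood F test, genotype as covariate, Benjamini-Hochberg over all genes tested, threshold 0.05). The steps within a genotype and the interaction came from a fit of 4 group means, and the 16 to 20 h step and the difference between steps from fits of their own 16 and 32 libraries. SE is the size of the log2 change divided by the square root of F. CPM values use TMM factors over all 48 libraries. DESeq2 1.42.0, other normalizations and filters, blocks and left-out libraries were alternatives, and functions were tested on simulated data.

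Members and gene lists were chosen with earlier results of these data known. Named genes are the 12 largest rises and falls and the 5 lowest p in each direction (mean of at least 1 CPM, no predicted name), all clock and clock output genes, up to 4 members of each other list, and the lowest p of the interaction (6) and of the difference between steps (4). Adipoq, Lep, Xist, Saa1, Saa2, C4a, Gm8730 and Gm9625 were named after their values were seen. Some genes that these rules name are not reported here, though they count in the totals of calls and lists. The main test did not take same-numbered libraries as pairs. Of 8 same-numbered pairs of 8 h with 4 h, 4 had deviations correlated above 0.1. Of KO with WT livers, 1 of 4 pairs did so at 8 h and 4 of 4 at 4 h (0.21 to 0.49), and with the number as a block the interaction still called 0 genes. Alternatives with GC and length trends, and those leaving out 2 libraries together, were chosen after seeing the data.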

Additional observations from a re-analysis of the deposited data

Results flagged for a closer look

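The change from 4 to 8 h differed from that from 16 to 20 h for Tubb2a (-2.57 on the log2 scale), Per3 (3.63), Slc30a10 (-2.03) and Per2 (3.11), each at an edgeR adjusted p of 5.5e-07 in the test of the difference itself.

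For 65 named genes, each of the 4 groups was searched for a library far from its 3 fellows, and 16 of 260 groups held one, where chance gives about 1 in 20. In KO livers of 8 h these were Osbpl5 in replicate 3 (5.20 CPM, the others 8.39 to 9.23), Klf10 in replicate 4 (77.1, the others 35.5 to 37.4) and Patl1 in replicate 3 (15.7, the others 18.1 to 18.6). In WT livers of 8 h they were Csnk1e in replicate 2 (3.76, the others 8.19 to 8.52) and Ccrn4l in replicate 1 (32.7, the others 49.2 to 51.6).

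In KO livers of 4 h, replicate 3 was lowest for Slc34a2 (0.411, the others 2.63 to 3.22), Cdkn1a (2.14, the others 9.65 to 13.1) and Clpx (252, the others 313 to 327). Replicate 1 was lowest for Cldn1 (68.2, the others 91.2 to 93.2) and highest for Bhlhe40 (62.1, the others 30.6 to 33.8) and Map4k4 (15.2, the others 10.4 to 10.9). Replicate 2 was lowest for Dbp (23.2, the others 67.8 to 76.7). In WT livers of 4 h, replicate 3 was lowest for Gnat1 (1.35, the others 4.58 to 5.44) and Timeless (1.05, the others 2.45 to 2.60), and replicate 2 was highest for Lonrf3 (2.14, the others 1.42 to 1.51) and lowest for Cxcl9 (3.67, the others 5.76 to 6.13).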

How the results depend on the processing

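The count of 154 genes from 4 to 8 h became 487 with DESeq2, 301 with GC and length trends removed, 339 with those trends removed and the replicate number as a block, and 71 to 318 with 1 library left out. The steps within a genotype gave 181 in KO and 305 in WT with DESeq2, and 25 in KO and 143 in WT with trends removed. With 1 library left out they ranged from 0 to 349 in KO and from 22 to 631 in WT. The interaction gave 3 with DESeq2, 1 over all 48 libraries, 749 with trends removed and KO replicate 1 of 4 h left out, and 0 to 2920 with 1 library left out. The step from 16 to 20 h gave 53 with DESeq2, 50 over all 48 libraries, 24 with trends removed and 4 to 10 with 1 library left out. The difference between the steps gave 469 with DESeq2, 488 with trends removed and 207 to 396 with 1 library left out. Apart from the blocks described next, no other alternative moved a count by over 1.5 times. No named gene that passed from 4 to 8 h changed direction in its 28 alternatives. The causes were not tested.

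Whether same-numbered libraries of 8 h and 4 h belong together is not settled, since differently numbered libraries were not compared. With the number as a block, 175 genes passed from 4 to 8 h, 24 in KO alone and 141 in WT alone, and with the number within genotype as a block 97 passed from 4 to 8 h, 88 of them among the 154. Correlations of same-numbered libraries of 8 h with 4 h ran from 0.09 to 0.27 in KO and from -0.34 to 0.26 in WT livers.

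Levels near 1 CPM, such as those of Npas2 and Slc34a2, rest on few counts. The SE covers the spread of mice, of their libraries and of counting together, and these parts were not separated.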

Other observations

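Several genes outside the lists were picked after their values were seen. Nrg4, a secreted neuregulin, rose by 1.32 on the log2 scale, Lipg, the endothelial lipase, by 1.05, and Serpina6, the corticosteroid-binding globulin, by 1.22. Among the falls, Ndrg1 changed by -1.43, Gldc, the glycine-cleaving decarboxylase, by -1.31, Avpr1a, the vasopressin receptor of liver, by -0.80, and Aqp8, a water channel, by -0.95. The complement genes C4a and C4b fell by 0.89 and 1.06, and reads of these near-identical genes may be shared. All of these passed edgeR's test at an adjusted p below 0.05. Serpina6, Aqp8, C4a and C4b had higher p-values than the others named here.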
